A study of Homo sapiens with 12 samples.

Results

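The Hippo pathway genes described here are 10 human genes that hold the transcriptional coactivator YAP in check, measured by RNA-seq in 12 libraries from SK-N-SH cells on surfaces of 3 stiffnesses. They were picked by name from the 60664 genes of the deposited count table, and all 10 were among the 17960 genes that passed the filter on low counts. They fall into the core kinases STK3, STK4 and LATS1, the kinase partners SAV1, MOB1A and NF2, the restrainers LATS2, AMOTL2 and PTPN14, which are known YAP target genes, and AMOTL1, the close relative of AMOTL2. LATS2, AMOTL2 and PTPN14 were set apart from the kinases because of their values at 30 and 8 kPa in these same libraries. Their values are therefore a description and carry no p here, and no member carries a p between 30 and 8 kPa.

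SK-N-SH is an established human neuroblastoma line that holds both neuron-like and flat, substrate-adherent cells. The groups were cells on surfaces of 1, 8 and 30 kPa, given in kilopascals (kPa), so that 1 kPa is the softest, with 4 libraries of total RNA each. No source used here gives the material of the surface, its coating or the time in culture, and all groups share the single line. The labels number the libraries without naming separate cultures, so p-values measure only the spread between these libraries, which may be technical.

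In the Hippo pathway the kinases MST1 and MST2, encoded by STK4 and STK3, work with the scaffold SAV1 to activate LATS1 and LATS2, which with their coactivator MOB1A phosphorylate YAP and its relative TAZ and keep them out of the nucleus. The membrane-linked protein merlin, encoded by NF2, promotes this step, while the angiomotin-like proteins AMOTL1 and AMOTL2 and the phosphatase PTPN14 bind YAP and hold it outside the nucleus. Freed from this restraint, YAP and TAZ enter the nucleus and switch on genes with TEAD factors, and in many adherent cells LATS2, AMOTL2 and PTPN14 are among those genes, so that the output of YAP feeds back on its own restraint. A stiffer surface is a textbook stimulus for YAP and TAZ.

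Library totals were 14317437 to 15896607 counts in 5 shallow libraries, which were all 4 at 1 kPa and 8 kPa replicate 1, and 23896536 to 27820973 counts in the 7 deep ones. Depth and stiffness are thus tied for 30 against 1 kPa, and no depth class holds libraries of both. Of 10 neuroblastoma markers 9 passed the filter, with HAND2 at 270, 337 and 302 CPM (counts scaled to the library total) at 1, 8 and 30 kPa, while TH had at most 1 count in any library. The 7 fibroblast markers also passed, as is known of the flat cells of this line, with LUM at 508, 398 and 453 CPM. Of the epithelial markers EPCAM, an adhesion protein, had no more than 1.72 CPM in any group mean. The keratins were higher, KRT18 at 35.7, 40.6 and 39.4 CPM and KRT8 at 15.7, 14.2 and 14.9 CPM at 1, 8 and 30 kPa. Immune markers had no more than 0.403 CPM and endothelial markers no more than 5.56 CPM in any group mean. RNA was taken from whole cultures, so fewer cells of a type and less RNA per cell cannot be told apart.

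The promoters are shown because LATS2, AMOTL2 and PTPN14 are known as targets of YAP and its TEAD partners. RefSeq promoters on GRCh38.p14 were found for 9 of the 10 genes, with 13 start sites in all, and the 250 bases before each start were searched on both strands. The TEAD core GGAATG, or its reverse complement CATTCC, was found in 2 of the 13 windows, 1 each of AMOTL2 and PTPN14, and 11.9% of all 35116 promoters of the same length hold it. The AP-1 motif TGANTCA, which reads the same on both strands, was found in 1 of the 13 windows, of LATS1, against 6.57% of all promoters. The AMOTL2 site lies at chr3:134374499-134374528 (GRCh38.p14, minus strand), 69 bases before the start, and the PTPN14 site at chr1:214551785-214551814 (minus strand), 200 bases before the start. In GENCODE v29 the AMOTL2 site falls within an exon of the same gene, and the PTPN14 window touches no exon. Each is printed 5′ to 3′ on the gene's own strand, with the core in capitals.
AMOTL2: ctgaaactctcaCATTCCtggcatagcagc
PTPN14: cctcccgggccgCATTCCtccccgcccccg
The LATS2 window, chr13:21061587-21061836 (minus strand), held neither motif, and its RefSeq start lies beyond the end of the gene in the annotation used for lengths. It is printed whole for comparison with the pair above, and a missing match says only that these letters are not in this window.
LATS2: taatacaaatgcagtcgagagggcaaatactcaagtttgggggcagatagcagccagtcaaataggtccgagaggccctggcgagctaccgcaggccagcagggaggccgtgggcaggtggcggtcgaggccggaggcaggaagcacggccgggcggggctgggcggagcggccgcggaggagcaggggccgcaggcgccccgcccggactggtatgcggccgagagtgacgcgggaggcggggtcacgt
These matches are a description of letters, and binding was not measured in these libraries.

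LATS2, AMOTL2 and PTPN14 stood at their lowest mean level at 8 kPa and their highest at 30 kPa, with 1 kPa between them and widely spread. All 3 had every 30 kPa library above every 8 kPa library, as did 4.79% of all tested genes, and they were chosen on that contrast, so nothing is read from their count. The 6 kinase-side genes (STK3, STK4, LATS1, SAV1, MOB1A and NF2) lay within 0.19 of no change on the log2 scale between any of the stiffnesses. All levels below are CPM after TMM scaling of the library totals, and all fold changes are log2 values from edgeR, the stiffer group over the softer, with the standard error (SE).

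LATS2 (ENSG00000150457, chromosome 13, 20973032 to 21061547 on the minus strand of GRCh38) encodes the kinase that phosphorylates YAP directly. At 1 kPa its 4 libraries, replicates 1 to 4, had 41.5, 73.6, 62.5 and 38.8 CPM, at 8 kPa 37.5, 43.8, 41.6 and 51.8 CPM, and at 30 kPa 67.4, 64.5, 70.2 and 56.3 CPM. The 30 kPa libraries all lay above the 8 kPa libraries, and the 1 kPa libraries fell on both sides, with replicate 2 above all at 30 kPa, replicate 3 among them, and replicates 1 and 4 among the 8 kPa values. The group means were 54.1 ± 16.8, 43.7 ± 6.02 and 64.6 ± 6.01 CPM at 1, 8 and 30 kPa (SD, n = 4 each). The log2 fold change was 0.56 (SE 0.166, 1.48-fold) for 30 against 8 kPa, 0.26 (SE 0.167) for 30 against 1 kPa and -0.30 (SE 0.169) for 8 against 1 kPa.

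AMOTL2 (ENSG00000114019, chromosome 3, 134355874 to 134375479, minus strand) encodes an angiomotin-like protein that binds YAP and supports its phosphorylation by LATS kinases. It spanned the widest range of the 10 genes in fold terms. Its libraries had 46.4, 89.5, 72.3 and 36.1 CPM at 1 kPa, 31.8, 45.8, 37.6 and 64.9 CPM at 8 kPa, and 81.1, 77.5, 88.0 and 74.6 CPM at 30 kPa. Replicate 2 at 1 kPa was the highest of all 12 libraries and 8 kPa replicate 1 the lowest, and only the 8 and 30 kPa groups did not overlap. The means were 61.1 ± 24.3, 45.0 ± 14.4 and 80.3 ± 5.77 CPM at 1, 8 and 30 kPa (SD, n = 4 each). The log2 fold change was 0.83 (SE 0.24, 1.78-fold) for 30 against 8 kPa, 0.40 (SE 0.24) for 30 against 1 kPa and -0.43 (SE 0.244) for 8 against 1 kPa.

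PTPN14 (ENSG00000152104, chromosome 1, 214348696 to 214552449, minus strand) encodes a non-receptor tyrosine phosphatase that binds YAP through PY motifs. Its libraries had 219.7, 332.5, 304 and 192.9 CPM at 1 kPa, 174.5, 222.6, 201.9 and 288.8 CPM at 8 kPa, and 302.6, 323.7, 321.8 and 301.8 CPM at 30 kPa. The 30 kPa libraries lay close together and above all at 8 kPa, whereas those at 1 kPa ran from below 3 of the 8 kPa libraries to above every 30 kPa library. The means were 262 ± 66.6, 222 ± 48.8 and 312.5 ± 11.9 CPM at 1, 8 and 30 kPa (SD, n = 4 each). The log2 fold change was 0.49 (SE 0.163, 1.41-fold) for 30 against 8 kPa, 0.25 (SE 0.163) for 30 against 1 kPa and -0.24 (SE 0.163) for 8 against 1 kPa.

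At an adjusted p under 0.05 edgeR called 0 genes between 30 and 8 kPa (0% of those tested, and 17.9% at an unadjusted p under 0.05), while DESeq2 called 430. The median log2 fold change over all tested genes was 0.00 for 30 against 8 kPa, and the 3 genes ranged from 0.49 to 0.83.

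**Figure D1:**
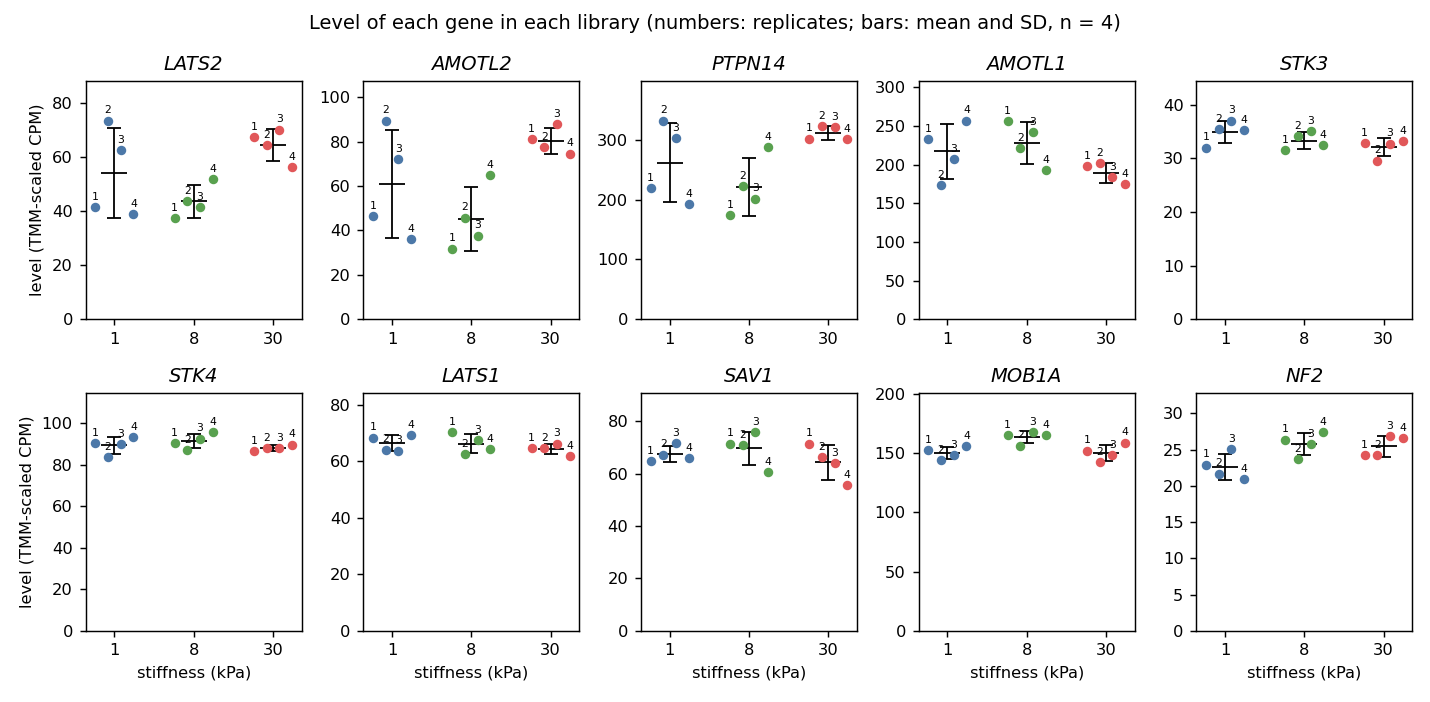
Level of each of the 10 genes in every library, in TMM-scaled CPM from 0 on the vertical axis against stiffness in kPa, with numbers marking replicates and bars the mean and SD (n = 4). LATS2, AMOTL2 and PTPN14 show the 30 kPa libraries above those at 8 kPa and a wide spread at 1 kPa, and STK3, STK4 and LATS1 stay level.

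All 1 kPa libraries were shallow, so these values were also taken by depth class. Among the 7 deep libraries, that is without 8 kPa replicate 1, the log2 fold change of 30 against 8 kPa was 0.50 for LATS2, 0.70 for AMOTL2 and 0.40 for PTPN14. Once the depth class was added as a term, the values for 30 against 1 kPa turned to -0.03 for LATS2, -0.24 for AMOTL2 and -0.19 for PTPN14. In that fit 8 against 1 kPa gave -0.53 for LATS2, -0.94 for AMOTL2 and -0.59 for PTPN14. The depth term rests on 8 kPa replicate 1 alone, the lowest 8 kPa library for each of the 3 genes. With that term no tested gene passed for 8 against 1 or 30 against 1 kPa. A call lost to the depth class further below therefore says nothing particular about that gene. In the shallow class the single 8 kPa library lay below all 4 of the 1 kPa libraries for each of the 3 genes. Without 1 kPa replicate 2 the values for 8 against 1 kPa shrank to -0.12 for LATS2, -0.19 for AMOTL2 and -0.11 for PTPN14, and those for 30 against 1 kPa grew to 0.44, 0.64 and 0.39. Leaving out 1 kPa replicate 4 moved them the other way. The values were then -0.44, -0.62 and -0.37 for 8 against 1 kPa and 0.12, 0.21 and 0.13 for 30 against 1 kPa.

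AMOTL1 (ENSG00000166025, chromosome 11, 94706431 to 94876753, plus strand), which also binds YAP and is the nearest relative of AMOTL2 in this set, ran the other way. Its libraries had 232.5, 173.1, 207 and 256.8 CPM at 1 kPa, 255.8, 221.1, 242 and 193.2 CPM at 8 kPa, and 198.2, 202.3, 183.4 and 174.5 CPM at 30 kPa. Only replicate 4 at 8 kPa lay within the 30 kPa range, and the 1 kPa libraries lay above it except replicate 2, just below it. The log2 fold change was -0.27 (SE 0.109) for 30 against 8 kPa. The change was -0.20 (SE 0.11, adjusted p = 0.351) for 30 against 1 kPa and 0.07 (SE 0.109, adjusted p = 0.71) for 8 against 1 kPa, neither past the threshold. The sign for 8 against 1 kPa turned without 1 kPa replicate 2 (-0.03), and that for 30 against 1 kPa turned once depth class entered the fit (0.03).

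At 1 and 8 kPa the replicates fell into the same order for the 3 feedback genes. At 1 kPa all 3 were highest in replicate 2, then 3, then 1, and lowest in 4, and AMOTL1 had exactly the reverse order. At 8 kPa all 3 were highest in replicate 4, then 2, then 3, and lowest in 1, and AMOTL1 again had the reverse order. At 30 kPa, where the levels were close, LATS2 and AMOTL2 were highest in replicate 3 and PTPN14 in replicate 2. The replicate numbers carry no shared source across stiffnesses in the labels.

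**Figure D2:**
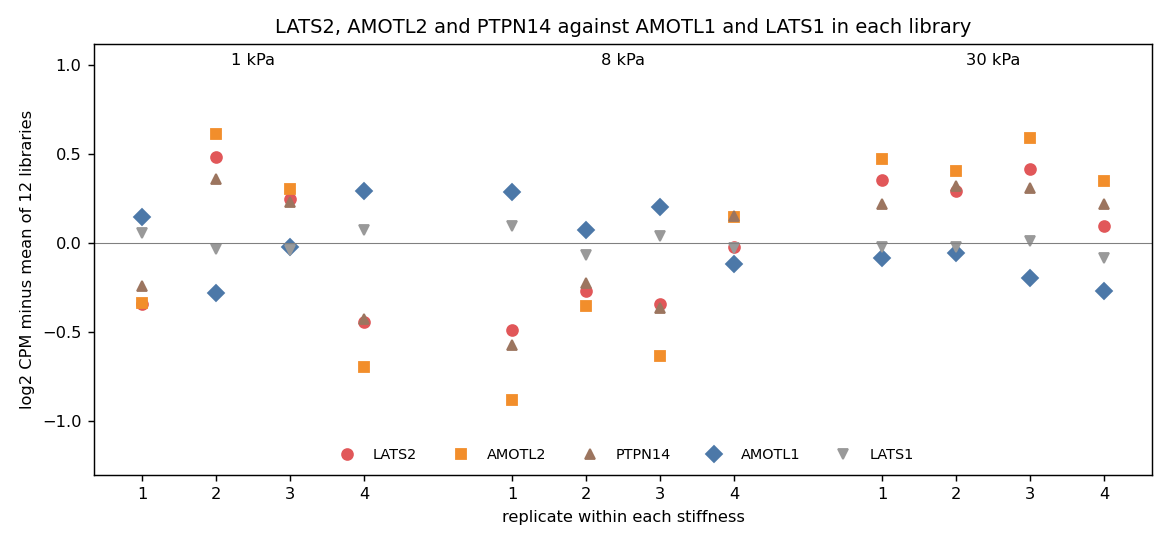
Log2 CPM of LATS2, AMOTL2, PTPN14, AMOTL1 and LATS1 in each library, minus the gene's mean over the 12 libraries, with replicates set out along the horizontal axis within each stiffness. The 3 feedback genes sit together in each library, AMOTL1 on the other side of 0 from AMOTL2 in all 12, and LATS1 close to 0.

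The same order held in the sum of other YAP target genes and in part of them taken singly. The summed level of 22 other YAP and TAZ target genes, fixed as a list with earlier results of these data known, was 3470, 5077, 4302 and 3054 CPM in 1 kPa replicates 1 to 4, 3128, 3700, 3420 and 4210 CPM at 8 kPa, and 4301, 4302, 4611 and 4130 CPM at 30 kPa. CCN1, a secreted matrix protein and classic YAP target, had 113.6, 228.7, 158 and 52.7 CPM at 1 kPa, 68.6, 92.3, 76.1 and 117.2 CPM at 8 kPa, and 213, 167.8, 185.4 and 131.2 CPM at 30 kPa. Both were thus highest and lowest in the same 1 and 8 kPa libraries as LATS2, AMOTL2 and PTPN14. NT5E alone made up 40.9% to 46.3% of the sum, which kept its order within 1 and 8 kPa without it. Of the 21 tested targets 12 were highest and lowest in the same libraries as the feedback genes at 1 kPa and 0 the other way round, and at 8 kPa 9 were and 2 ran the other way round. The share of all tested genes with the same highest and lowest libraries was not counted, so nothing particular to YAP targets is read from these counts.

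Cell state markers followed the order of libraries of these genes in part. The summed level of the 10 neuroblastoma markers was 996, 638, 805.8 and 1025 CPM at 1 kPa, 1331, 1123, 1202 and 894.9 CPM at 8 kPa, and 1128, 1117, 1067 and 974.4 CPM at 30 kPa. Within 1 and 8 kPa this order of replicates is the reverse of that of the feedback genes and the same as that of AMOTL1. HAND2 and STMN2 were the largest parts of the sum, with means of 270 and 227 CPM at 1 kPa. Gene by gene, 3 of the 9 tested markers had the reverse highest and lowest library at 1 kPa and 5 at 8 kPa, and 0 had those of the feedback genes. The share of all tested genes was not counted here either. The 7 fibroblast markers summed to 1142, 1345, 1281 and 1042 CPM at 1 kPa, 990.5, 1060, 1047 and 1032 CPM at 8 kPa, and 1178, 1145, 1139 and 1031 CPM at 30 kPa. At 1 kPa the sum had the order of the feedback genes, as did 3 of the 7 genes taken singly, and 1 had the reverse highest and lowest library. At 8 kPa the sum did not. There 2 of the 7 genes had the highest and lowest library of the feedback genes and 2 had the reverse. Of the neuroblastoma list STMN2, a neuronal tubulin-binding protein, rose by 0.72 on the log2 scale (adjusted p = 0.0238) and PHOX2A, a noradrenergic transcription factor, by 0.49 (adjusted p = 0.0264) at 8 against 1 kPa, and PHOX2A rose by 0.52 (adjusted p = 0.0475) at 30 against 1 kPa. Leaving out 1 library ended these calls in 3 of 12 fits for STMN2 (1 kPa replicate 3, 8 kPa replicates 1 and 3, adjusted p up to 0.0817) and for PHOX2A in 5 fits of 8 against 1 kPa (up to 0.0828) and 10 of 30 against 1 kPa (up to 0.127). Adding the depth class ended all 3 calls at larger log2 values (1.05 for STMN2, 0.64 and 0.73 for PHOX2A). Of the 9 neuroblastoma markers 2 and 1 thus passed in these comparisons and of the 7 fibroblast markers 0, where 13.8% of all tested genes passed for 8 against 1 kPa and 2.43% for 30 against 1 kPa. The part of cell state in the levels of the feedback genes was not tested.

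The core kinases came next in the order of the pathway. STK3 (ENSG00000104375, chromosome 8, 98371228 to 98942827, minus strand), which encodes MST2, had 32, 35.5, 37 and 35.2 CPM at 1 kPa, 31.5, 34.2, 35.1 and 32.4 CPM at 8 kPa, and 32.8, 29.6, 32.8 and 33.2 CPM at 30 kPa. The 3 groups overlapped, with 30 kPa replicate 2 the lowest library. Its log2 fold change was -0.05 for 30 against 8 kPa, -0.12 (adjusted p = 0.31) for 30 against 1 kPa and -0.07 (adjusted p = 0.487) for 8 against 1 kPa.

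STK4 (ENSG00000101109, chromosome 20, 44966474 to 45079959, plus strand) encodes MST1. Its libraries had 90.6, 83.8, 90.2 and 93.4 CPM at 1 kPa, 90.6, 87.3, 92.8 and 95.7 CPM at 8 kPa, and 86.5, 88.1, 88.2 and 89.8 CPM at 30 kPa. All 12 libraries lay within a narrow band and the groups overlapped. STK4 had a log2 value of -0.06 for 30 against 8 kPa, -0.02 (adjusted p = 0.851) for 30 against 1 kPa and 0.03 (adjusted p = 0.667) for 8 against 1 kPa. The 95% interval for 30 against 1 kPa ran from -0.12 to 0.07 on the log2 scale.

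LATS1 (ENSG00000131023, chromosome 6, 149658153 to 149718256, minus strand), the paralogue of LATS2, encodes a YAP kinase too. Its libraries had 68.3, 64.1, 63.8 and 69.1 CPM at 1 kPa, 70.2, 62.6, 67.4 and 64.3 CPM at 8 kPa, and 64.8, 64.8, 66.2 and 61.8 CPM at 30 kPa. The groups overlapped throughout. Its log2 fold change was -0.04 for 30 against 8 kPa, -0.04 (adjusted p = 0.701, 95% interval from -0.14 to 0.06) for 30 against 1 kPa and -0.01 (adjusted p = 0.955) for 8 against 1 kPa. The sign of that last value turned with library size alone as the scaling (0.02) and in 6 other alternatives.

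The kinase partners held the only member other than the feedback genes with groups that did not overlap. MOB1A (ENSG00000114978, chromosome 2, 74152528 to 74178898, minus strand), the coactivator of LATS kinases, had 152.5, 144.1, 148 and 155.5 CPM at 1 kPa, 164.9, 156.3, 167.4 and 165.1 CPM at 8 kPa, and 152, 142.5, 148.2 and 158.7 CPM at 30 kPa. Every 8 kPa library lay above every 1 kPa library, as in 9.41% of all tested genes, and 30 kPa overlapped with both. Its log2 fold change was 0.12 (SE 0.0491, adjusted p = 0.104) for 8 against 1 kPa, 0.00 (adjusted p = 0.983) for 30 against 1 kPa and -0.12 for 30 against 8 kPa. For 8 kPa against the mean of both end stiffnesses the log2 value was 0.12 (SE 0.0422, adjusted p = 0.0861). With the replicate number as a block 8 against 1 kPa passed at an adjusted p of 0.0493, against a range of 0.0493 to 0.318 over its alternatives. The sign for 30 against 1 kPa depended on the alternative.

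NF2 (ENSG00000186575, chromosome 22, 29603556 to 29698598, plus strand) encodes merlin, which links the cell membrane to the actin cortex. Its libraries had 22.9, 21.7, 25 and 20.9 CPM at 1 kPa, 26.4, 23.7, 25.7 and 27.4 CPM at 8 kPa, and 24.2, 24.2, 26.9 and 26.6 CPM at 30 kPa. All but 1 kPa replicate 3 of the softest group lay below the other 8 libraries. The log2 change of NF2 was 0.19 (SE 0.0721, adjusted p = 0.0954) for 8 against 1 kPa, 0.17 (SE 0.0717, adjusted p = 0.212) for 30 against 1 kPa and -0.02 for 30 against 8 kPa, and neither of the tested values passed the threshold.

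SAV1 (ENSG00000151748, chromosome 14, 50632058 to 50668331, minus strand), the scaffold of the MST kinases, had 64.8, 67.2, 71.7 and 66.1 CPM at 1 kPa, 71.5, 70.8, 75.8 and 60.7 CPM at 8 kPa, and 71.5, 66.5, 63.9 and 55.5 CPM at 30 kPa. The groups overlapped. The log2 fold change was -0.11 for 30 against 8 kPa, -0.07 (adjusted p = 0.696) for 30 against 1 kPa and 0.05 (adjusted p = 0.731) for 8 against 1 kPa. SAV1 shares 840 exon bases with ATL1 on the opposite strand, and since the strand setting of the counting was not given its values are uncertain.

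Of the 7 members with a test, 0 passed between 8 and 1 kPa, where 13.8% of all tested genes did. MOB1A and NF2 had an unadjusted p under 0.05 there, as did 31.2% of all tested genes, and DESeq2 called 0 of the 7. Between 30 and 1 kPa 0 of 7 passed against 2.43% of all tested genes, with NF2 alone at an unadjusted p under 0.05 (18.9% of all genes) and 0 called by DESeq2. With 8 kPa set against the mean of both end stiffnesses 0 of 7 passed against 7.08% of all tested genes, with MOB1A alone at an unadjusted p under 0.05 (27.5% of all genes) and called by DESeq2 (adjusted p = 0.029, against a range of 0.029 to 0.267 over its alternatives). No member had groups that did not overlap between 30 and 1 kPa, where 11.4% of all tested genes did. Over all 10 members the median log2 fold change was 0.01 for 8 against 1 kPa, -0.05 for 30 against 8 kPa and -0.01 for 30 against 1 kPa, beside -0.01, 0.00 and 0.00 over all tested genes. The 3 comparisons share their groups and are not independent. A missed threshold does not show that levels were the same. Over STK3, STK4 and LATS1 the bound of the 95% interval (the normal range of the SE) farthest from 0 was -0.24 on the log2 scale, for STK3 between 30 and 1 kPa.

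**Figure D3:**
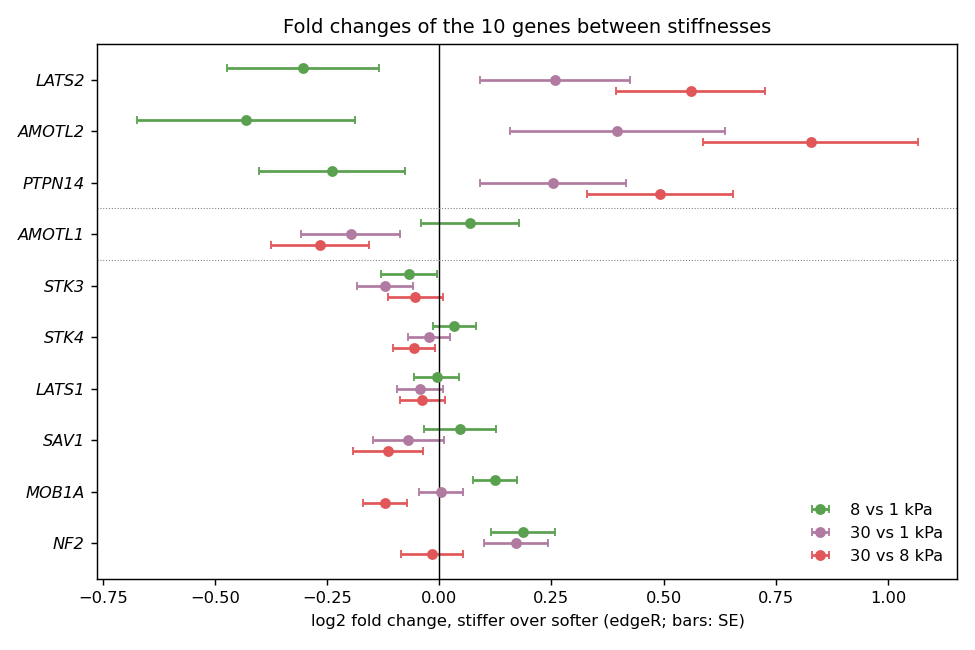
Log2 fold change of each gene between stiffnesses, the stiffer over the softer, with bars of 1 SE from edgeR. Values of LATS2, AMOTL2 and PTPN14 reach from -0.43 to 0.83, AMOTL1 is at -0.27 for 30 against 8 kPa, and the kinases and partners stay between -0.12 and 0.19.

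The contrast between feedback genes and kinases was taken per library, as the mean log2 CPM of LATS2, AMOTL2 and PTPN14 minus that of STK3, STK4 and LATS1. It was 0.36, 1.18, 0.90 and 0.08 in 1 kPa replicates 1 to 4, 0.02, 0.42, 0.18 and 0.76 at 8 kPa, and 1.06, 1.09, 1.13 and 0.93 at 30 kPa. The 30 kPa libraries lay above every 8 kPa library, and at 1 kPa only replicate 2 exceeded them. The means were 0.63 ± 0.50, 0.34 ± 0.32 and 1.05 ± 0.09 at 1, 8 and 30 kPa (SD, n = 4 each). The difference was 0.71 for 30 against 8 kPa, 0.42 for 30 against 1 kPa and -0.29 for 8 against 1 kPa, and with SAV1, MOB1A and NF2 added to the kinases it was 0.72, 0.37 and -0.35. Nearly all of it came from the feedback side, whose mean log2 CPM was 6.52, 6.22 and 6.87 at 1, 8 and 30 kPa, beside 5.89, 5.87 and 5.82 for the kinases. This difference is what the genes were sorted on, so it carries no test. For 30 against 1 kPa it cannot be told apart from depth, and with the depth class in the fit the feedback genes turned sign there, as given above. Without the shallow 8 kPa replicate 1, it was 0.60 for 30 against 8 kPa.

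Levels were set beside each other between genes after division by exon length (CPM per kb). That length joins all annotated exons of a gene and may exceed that of the transcript expressed. Over the 12 libraries MOB1A had 24 ± 1.29, AMOTL1 21.1 ± 2.96, PTPN14 14.2 ± 3.11, SAV1 11.9 ± 0.986, AMOTL2 10.4 ± 3.56, STK4 9.89 ± 0.36, LATS2 9.71 ± 2.38, LATS1 7.59 ± 0.305, NF2 3.44 ± 0.289 and STK3 2.65 ± 0.162 CPM per kb (SD, n = 12). The SD ranges of neighbours in this order overlapped except for AMOTL1 above PTPN14, LATS1 above NF2 and NF2 above STK3. Within single stiffnesses the middle of the order differed, with AMOTL2 at 13.4 and LATS2 at 11.6 above SAV1 at 11.4 CPM per kb at 30 kPa, and AMOTL2 at 7.53 below LATS1 at 7.65 CPM per kb at 8 kPa.

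Within paralogue pairs the ratios for LATS and AMOTL did not overlap between 30 and 8 kPa, and those for STK overlapped between all stiffnesses. LATS2 and AMOTL2 were chosen on their values at 30 and 8 kPa, so nothing is read from this difference between pairs. The ratio of LATS2 to LATS1 per kb was 1.28 ± 0.443, 1.03 ± 0.18 and 1.55 ± 0.103 at 1, 8 and 30 kPa (SD, n = 4 each). It was above 1 in all 4 of the 30 kPa libraries only after division by length. In plain CPM the ratio was 1.04, 0.996, 1.06 and 0.911 in 30 kPa replicates 1 to 4. The ratio of AMOTL2 to AMOTL1 per kb was 0.335, 0.867, 0.586 and 0.236 in 1 kPa replicates 1 to 4, 0.209, 0.347, 0.261 and 0.564 at 8 kPa, and 0.686, 0.643, 0.805 and 0.717 at 30 kPa. AMOTL1 remained the more abundant of the pair in every library, and all 30 kPa ratios lay above all at 8 kPa. The ratio of STK3 to STK4 per kb was 0.282 ± 0.023, 0.262 ± 0.0179 and 0.262 ± 0.0139 at 1, 8 and 30 kPa.

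**Figure D4:**
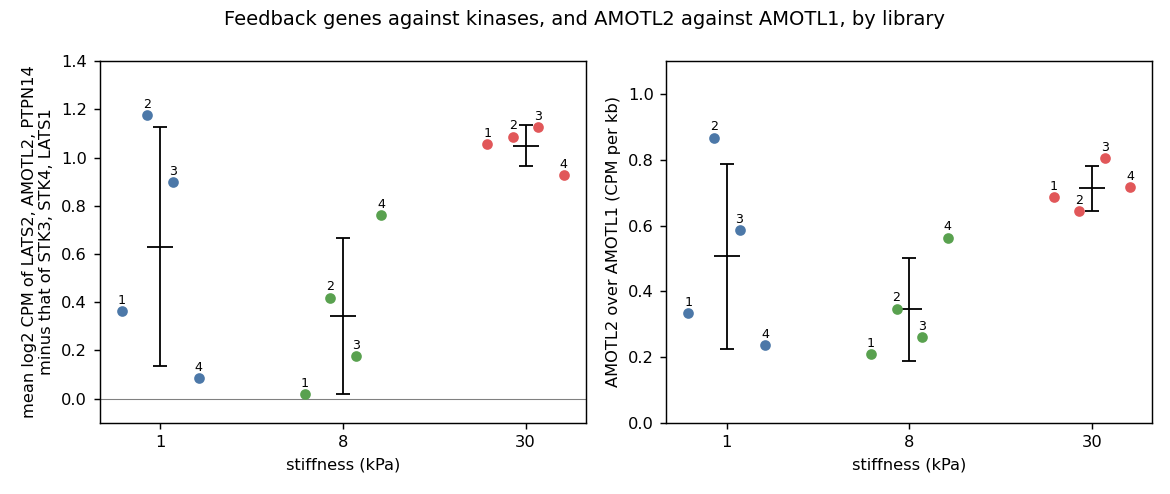
Left, mean log2 CPM of LATS2, AMOTL2 and PTPN14 minus that of STK3, STK4 and LATS1 in each library against stiffness in kPa; right, the ratio of AMOTL2 to AMOTL1 in CPM per kb, with bars of mean and SD (n = 4) and numbers marking replicates. The 30 kPa libraries cluster at 0.93 to 1.13 on the left and at 0.643 to 0.805 on the right, all above the 8 kPa libraries, and the 1 kPa libraries span both.

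The spread between libraries set the same genes apart, in a measure looked at after their values were seen. At 1 kPa the SD of log2 CPM was 0.45 for LATS2, 0.59 for AMOTL2, 0.37 for PTPN14 and 0.24 for AMOTL1, where the median of the 8181 genes of at least 20 CPM was 0.11. These spreads exceeded those of 98.3%, 99.3%, 97.1% and 90.6% of the genes. STK4, LATS1 and MOB1A had 0.07, 0.06 and 0.05, each below the median. At 30 kPa the SD was 0.14 for LATS2, 0.10 for AMOTL2 and 0.05 for PTPN14 beside a median of 0.07, and SAV1 had the widest of the 10 at 0.15. The 1 kPa libraries are also the shallow ones, and the part of depth in these spreads was not tested.

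**Figure D5:**
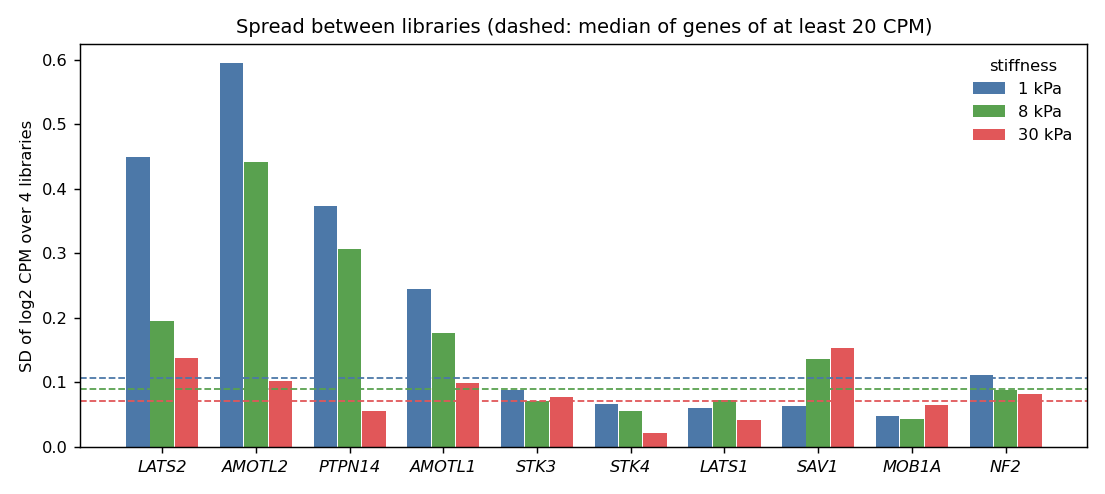
SD of log2 CPM over the 4 libraries of each stiffness for the 10 genes, as bars from 0, with dashed lines at the median of 8181 genes of at least 20 CPM. LATS2, AMOTL2 and PTPN14 reach 0.45, 0.59 and 0.37 at 1 kPa, and STK3, STK4 and LATS1 stay below the 1 kPa median of 0.11.

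The other genes of the pathway were taken from lists chosen with earlier results of these data known. Between 8 and 1 kPa 8.17% of all tested genes rose and 5.6% fell. Of 18 tested genes among 19 other core kinases and partners 0 rose and 1 fell, RASSF4, a RASSF family member, by 0.32 on the log2 scale (adjusted p = 0.0465). Of 23 tested among 29 membrane and junction regulators 1 rose and 1 fell. The junction protein PATJ fell by 0.32 (adjusted p = 0.00755), and LLGL1, a polarity protein, rose by 0.24 (adjusted p = 0.021). RASSF4 lost its call in 8 of 12 fits that left out 1 library (adjusted p up to 0.143) and LLGL1 in 3, those omitting replicate 2 at 1 kPa or replicates 1 and 3 at 8 kPa (up to 0.0729). PATJ kept its call without each library in turn and lost it once the depth class was added (adjusted p = 0.087, against a range of 8.11e-05 to 0.087 over its alternatives), with the log2 value nearly the same at -0.31. RASSF4 and LLGL1 lost theirs as well, at log2 values of -0.46 and 0.33.

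All 20 genes that act against the kinases, of the STRIPAK phosphatase complex and the Ajuba family, were tested, and 3 rose and 1 fell between 8 and 1 kPa. The phosphatase catalytic subunit PPP2CA rose by 0.22 (adjusted p = 0.0265), the kinase STK24 by 0.23 (adjusted p = 0.0331) and the striatin STRN4 by 0.23 (adjusted p = 0.0417). WTIP, an Ajuba family protein, fell by 0.60 (adjusted p = 0.0388). Each of these calls was lost in 6 to 10 of 12 fits without a single library, at an adjusted p of up to 0.13. Adding the depth class ended them too, while the log2 values were 0.23 for PPP2CA, 0.25 for STK24, 0.32 for STRN4 and -0.99 for WTIP.

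Of 7 tested nuclear effectors among 10, TEAD4 rose by 0.34 and TEAD3 fell by 0.29 at 8 against 1 kPa (adjusted p = 0.0442 for both). Both encode DNA-binding partners of YAP. Of 14 tested among 15 genes of YAP degradation and its 14-3-3 anchors 3 rose, YWHAQ by 0.34 (adjusted p = 0.0246), YWHAH by 0.30 (adjusted p = 0.0286) and YWHAE by 0.28 (adjusted p = 0.0494), all of which encode 14-3-3 proteins that hold phosphorylated YAP in the cytoplasm. Leaving out 1 library ended these calls in 4 to 10 of 12 fits, at an adjusted p of up to 0.14, and adding the depth class ended all 5. The log2 values were then 0.43 for TEAD4, -0.18 for TEAD3, 0.42 for YWHAQ, 0.38 for YWHAH and 0.32 for YWHAE. The replicate block also ended the call of TEAD4 (adjusted p = 0.0571, against a range of 0.024 to 0.143 over its alternatives). With only the groups compared in the fit TEAD4, YWHAQ, YWHAH and YWHAE lost their calls (adjusted p = 0.0656, 0.064, 0.0684 and 0.0977). TEAD3 and YWHAE lost theirs with library size alone (adjusted p = 0.0676 and 0.0512), and TEAD3 without the filter (adjusted p = 0.079). Of 21 tested among the 22 other YAP and TAZ targets DLC1 rose by 0.20 (adjusted p = 0.0274) and ARHGEF17 fell by 0.26 (adjusted p = 0.0282), and they lost these calls in 5 and 4 of 12 fits (adjusted p up to 0.097 and 0.0904) and with the depth class added, at log2 values of 0.20 and -0.29. Both calls also ended with only the groups compared (adjusted p = 0.0659 for each), and that of DLC1 without the filter (adjusted p = 0.0723).

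Between 30 and 1 kPa 4 of the 82 tested genes of these lists without the YAP targets passed, all lower at 30 kPa, and 0 rose. Of the 21 tested targets 0 passed. Of all tested genes 1.33% fell and 1.1% rose. PATJ fell by 0.39 (adjusted p = 0.00563), kept its call without each library in turn and lost it once the depth class was added (adjusted p = 0.444, against a range of 5.75e-07 to 0.444 over its alternatives), with the log2 value nearly the same at -0.39. The coactivators themselves were lower in mRNA. WWTR1, which encodes TAZ, fell by 0.62 (adjusted p = 0.0224) to 87.8 ± 4.96 CPM at 30 kPa, against 134.4 ± 27.5 CPM at 1 kPa (SD, n = 4 each), and YAP1 fell by 0.22 (adjusted p = 0.0427) to 208 ± 6.46 CPM, against 243 ± 12.7 CPM. TEAD3 fell by 0.36 (adjusted p = 0.0477). YAP1 and TEAD3 lost these calls with library size alone (adjusted p = 0.0626 and 0.0685) and with only the groups compared (adjusted p = 0.07 and 0.0776). YAP1 lost its call without the filter as well (adjusted p = 0.0989). Leaving out 1 library ended the call in 4 of 12 fits for WWTR1 (1 kPa replicate 1 and 30 kPa replicates 2, 3 and 4, adjusted p up to 0.0819), 9 for YAP1 (up to 0.131) and 10 for TEAD3 (up to 0.145), and adding the depth class ended all of them, at log2 values of -0.37 for WWTR1, -0.32 for YAP1 and -0.22 for TEAD3. Between 30 and 8 kPa 19 of the 21 tested YAP and TAZ targets had a positive fold change, as did 50.9% of all tested genes. The median of the targets was 0.18 on the log2 scale against 0.00 over all tested genes, and 0 passed. Part of the targets share an order of libraries, as given above, so they are not independent.

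The genes with the profile most like that of the 3 feedback genes were sought among 11855 tested genes by the root mean square difference of log2 CPM, each centred on its mean over the 12 libraries. The closest were MYOF, a ferlin of the plasma membrane that was also on the list of YAP targets (0.06), NEXN, an actin-binding protein (0.06), SMIM43, a small membrane protein (0.07), PLAU, the urokinase plasminogen activator (0.09), and the pseudogene PDE4DIPP2 (0.09), whose counts are uncertain because related copies can share reads. For scale, the mean profile itself had a root mean square of 0.39. MYOF had 388 ± 124, 326 ± 90.3 and 482.5 ± 32 CPM at 1, 8 and 30 kPa, and PLAU 368 ± 121.5, 297 ± 62.7 and 484 ± 26.4 CPM (SD, n = 4 each). PLAU had at least 457.6 CPM in the 30 kPa libraries, above its highest 8 kPa library at 373 CPM, as in 4.79% of all tested genes. MYOF overlapped between these groups, with at least 445.6 CPM at 30 kPa and at most 454.9 CPM at 8 kPa. Both were sought by likeness to genes chosen on 30 against 8 kPa, so nothing is read from these levels.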

How the data were processed

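RNA-seq of 12 SK-N-SH libraries was analysed from the raw gene counts deposited by the authors; reads were aligned with HISAT2 to GRCh38, per the submitters' processing notes, with counting tool, annotation and strand setting not given in the sources used here. Groups were taken from the sample titles. Counts were filtered with filterByExpr, which left 17960 genes with at least 99.87% of each library's counts, scaled by TMM and fitted over all 12 libraries with stiffness as the only term (edgeR 4.0.16, R 4.3.3, quasi-likelihood test). P-values were adjusted by Benjamini-Hochberg over all tested genes at a threshold of 0.05, and every adjusted p comes from that test unless DESeq2 (1.42.0) is named. The SE is the size of the log2 fold change over the root of F. Positions and exon lengths came from GENCODE v29, and promoters from RefSeq. The fits were tested on simulated counts.

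The members, lists and tests were chosen with earlier results of these data known. The 10 members are named, as are up to 4 members of each other list past the threshold for 8 against 1 or 30 against 1 kPa, and the 5 genes most like the feedback genes. Members held from 302 to 8983 counts per library. Alternatives were median-ratio factors, library size alone, no filter, DESeq2, only the groups compared, the replicate number as a block, the depth class as a term and leaving out each library.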

Additional observations from a re-analysis of the deposited data

Results flagged for a closer look

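STK3 at 30 kPa stood out because replicate 2 lay apart from the other 3 libraries of its group, at 29.6 CPM, against 32.8, 32.8 and 33.2 CPM in replicates 1, 3 and 4. It was the lowest of the 12 libraries for this gene. In all 42 groups of 4 libraries were checked in this way, and chance gives about 1 such library in 20 groups.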

How the results depend on the processing

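For 30 against 8 kPa LATS2, AMOTL2 and PTPN14 stayed positive under every alternative. Over fits without 1 library their log2 values ran from 0.50 to 0.66, 0.70 to 1.06 and 0.40 to 0.65. These genes were chosen on that contrast, and their 30 kPa libraries all lay above those at 8 kPa. Leaving out 1 library could thus not turn the sign, and nothing is read from it. The difference between feedback genes and kinases ran from 0.597 to 0.845 for 30 against 8 kPa, with the same limit. Over the same omissions it ran from 0.237 to 0.601 for 30 against 1 kPa and -0.468 to -0.105 for 8 against 1 kPa. Counts of called genes moved more, and the cause was not tested. Between 8 and 1 kPa the count of 2472 became 1068 with only the groups compared, 0 with the depth class and 534 to 3563 without 1 library. Between 30 and 8 kPa the count of 0 became 330 without the filter, 430 in DESeq2, 61 with only the groups compared and 0 to 1026 without 1 library. Between 30 and 1 kPa the count of 437 became 263 with library size alone, 875 without the filter, 1068 in DESeq2, 0 with the depth class and 50 to 676 without 1 library. For 8 kPa against the mean of 1 and 30 kPa the count of 1272 became 2296 in DESeq2 and 0 to 2870 without 1 library.

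Whether the replicate numbers pair the libraries was not tested. Correlations of same-numbered libraries ran from -0.134 to 0.369, and 6 of 12 libraries matched best with their own number. How many would match without pairing was not worked out, so no pairing is read from these matches. With the replicate block the counts were 3273 for 8 against 1 kPa and 40 for 30 against 8 kPa. They were 974 for 30 against 1 kPa and 2096 for 8 kPa against the mean. For 8 against 1 kPa 1 member, MOB1A, passed.

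Signs turned for values that passed no test or had none. For 8 against 1 kPa these were LATS1 (0.0206 with library size alone, 0.0113 without the filter, 0.0817 with the depth class, -0.0393 to 0.0205 without 1 library), AMOTL1 (-0.0265 to 0.153 without 1 library) and SAV1 (-0.000399 to 0.103). For 30 against 1 kPa they were LATS2 (-0.0282), AMOTL2 (-0.238), PTPN14 (-0.194), LATS1 (0.073) and AMOTL1 (0.0281) with the depth class and MOB1A (-0.000895 with only the groups compared, -0.0254 to 0.0268 without 1 library). For 30 against 8 kPa it was NF2 (-0.056 to 0.0181 without 1 library). For 8 kPa against the mean they were STK3 (0.00994 with library size alone, -0.0355 to 0.013 without 1 library) and LATS1 (-0.0171 to 0.0417 without 1 library).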
